A study of Arabidopsis thaliana with 4 samples.

Results

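The genes described here are 32 regulators of mitosis, taken by locus identifier from the 32833 genes of the count table. They and the other gene lists below were chosen with earlier results of these data known. Their counts beside the shares of all genes are therefore a description and not an independent test. They comprise 7 A-type cyclins, 9 B-type cyclins, 5 cyclin-dependent kinases, 5 activators of the anaphase-promoting complex (APC/C), 3 MYB3R transcription factors and 3 Aurora kinases. All 32 passed the filter on low counts, with 36 reads as the lowest value of any of them in any library. The set does not hold every paralog of these families, and the remaining ones are counted apart below.

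Entry into mitosis depends on cyclin-dependent kinases (CDKs), which are active only with a cyclin bound. In plants the A-type CDK is present throughout the cell cycle, whereas B-type CDKs, found only in the plant lineage, and B-type cyclins are made mainly around the G2 phase and mitosis. Exit from mitosis depends on the APC/C, a ubiquitin ligase that marks cyclins for destruction. It is directed by CDC20 proteins in mitosis and by CCS52 proteins mainly later and in G1, and CCS52A proteins also promote endoreduplication, the replication of DNA without division. MYB3R factors bind an element with the core AACGG, called the mitosis-specific activator element, in promoters of many G2 and mitosis genes, as activators or as repressors. Aurora kinases phosphorylate histone H3 and act in spindle assembly and in the placing of the division plane.

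RNA was sequenced from callus, the proliferating tissue that forms on hypocotyl explants of Arabidopsis thaliana on medium with the synthetic auxin 2,4-D (11 µM) and the cytokinin kinetin (0.2 µM). One genotype was wild type Col-0. The other was the double mutant wox5-1 wox7-1, with mutant alleles of 2 related homeobox genes, of which WOX5 acts in the stem cell niche of the root. Both were at the stage labelled 6 days, after 9 days of growth in darkness, and each had 2 libraries, from about 100 calli per extraction according to the design text. Nothing in the labels tells whether the 2 libraries of each genotype were grown as separate cultures. The p-values below therefore measure the spread between these libraries alone, and that spread may be technical.

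The libraries held 30041268 to 40008661 gene-assigned reads. WOX5 had 4378 and 5268 reads in wild type callus and 9 and 33 in mutant callus, in the direction of the labels. Of 7 markers of root-type callus, all had reads, 3 were lower in mutant callus (WOX5, PLT2 and SCR), and SHR was higher in both mutant libraries without passing the threshold. The summed level of the 7, WOX5 included, ran from 1040 to 1110 CPM (reads scaled to a common library size, with TMM factors) in wild type callus and from 729 to 842 in mutant callus. Markers of other cell types were also scored. The sum of 7 endodermis and suberin markers was 10.2 and 12.1 CPM in wild type callus and 163 and 177 in mutant callus, with 4 of 7 higher and CASP1 without reads. MYB92, which encodes a regulator of suberin formation, made up most of that sum, at 1.22 and 1.19 CPM against 121 and 124. The 3 root cap markers summed to 7.99 and 10.7 CPM in wild type callus and 86.4 and 101 in mutant callus, with 1 higher (SMB). SMB made up most of the mutant sums, at 7.76 and 4.73 CPM against 85.8 and 89.4. NAC015 overlapped between genotypes, at 0.23 and 5.95 CPM in wild type callus and 0.509 and 11.6 in mutant callus. In both genotypes its replicate 2 was far above its replicate 1. The 7 xylem vessel markers summed to 10.5 to 12.0 CPM in wild type callus and 16.6 to 24.7 in mutant callus, with 1 higher (XCP1). The 5 markers of photosynthetic tissue summed to 6.57 to 12.8 CPM over all libraries, with overlapping genotypes.

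In mutant callus 17 of the 32 mitotic regulators were lower and 0 were higher, at a Benjamini-Hochberg adjusted p below 0.05 from the quasi-likelihood test of edgeR. Over the 18716 genes tested, 5.81% were called lower and 6.06% higher, 11.9% together. The members that fell included 3 of 4 CYCB1 cyclins, all 4 CDKB kinases, both CDC20 genes, CCS52B, MYB3R4 and AUR3. Their decreases were moderate, with log2 fold changes from -0.89 to -0.43. The median over the 32 members was -0.51, against 0.00 over all tested genes. At an unadjusted p below 0.05, 20 members were lower and 2 were higher, against 16.3% lower and 17.0% higher over all tested genes. DESeq2 called 19 lower and 2 higher, where its calls over all genes it tested came to 9.29% lower and 11.5% higher (20.8% together).

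In 25 members both mutant libraries lay below both wild type libraries, an order found in 33.0% of all tested genes. In 4 members both lay above, an order found in 31.5% of tested genes, and in 3 the genotypes overlapped. Summed over the 32 genes, the level was 1730 and 1820 CPM in wild type callus and 1350 and 1300 CPM in mutant callus. In bulk callus, fewer dividing cells and less RNA of these genes per cell cannot be told apart. The sums of the endodermis and suberin markers and of the root cap markers moved in the opposite direction, resting mostly on MYB92 and SMB. Not every marker of these lists did so, and their part in the decrease was not tested. Between replicates of a genotype the members differed by log2 ratios of -0.42 to 0.14 (median -0.11) in wild type callus and of -0.30 to 0.53 (median 0.07) in mutant callus.

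The calls changed when a library was left out. Such a fit leaves 1 library in a genotype, so fewer calls there do not show that a single library produced them. Without wild type replicate 1, and likewise without wild type replicate 2, 0 members passed the threshold by edgeR, as did 0 of all genes. The median log2 fold change over members was -0.51 and -0.41 in these fits, against 0.01 and 0.01 over all tested genes. Leaving out mutant replicate 2 left 5 members lower, beside 2.87% of all tested genes, and leaving out mutant replicate 1 left 13, beside 5.41%. The median over members lay between -0.51 and -0.41 in these fits.

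**Figure D1:**
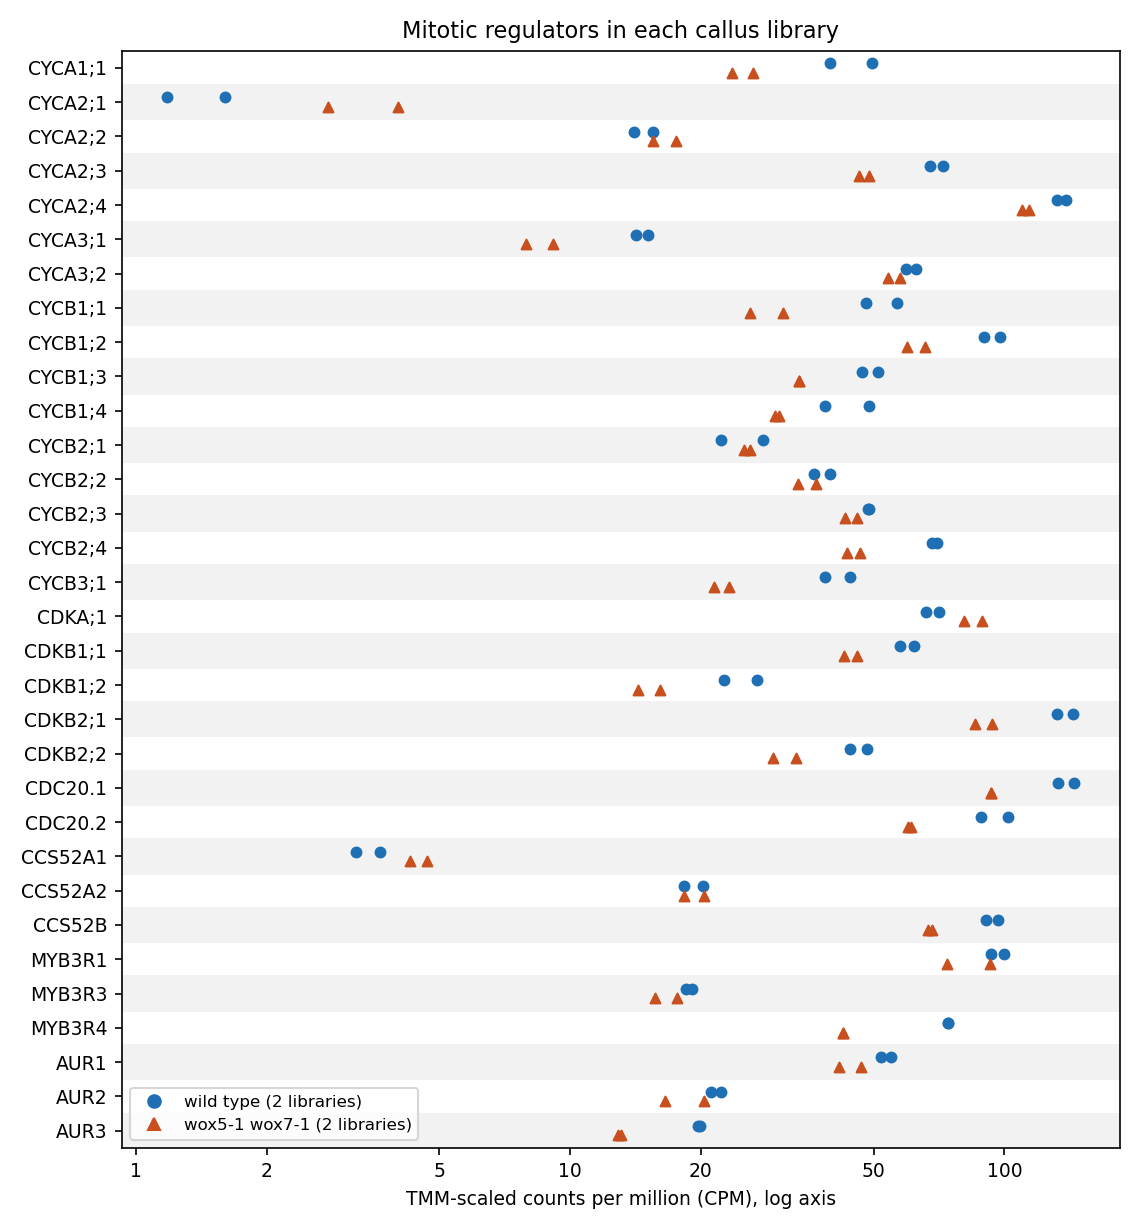
TMM-scaled CPM on a log axis for the 32 mitotic regulators, 1 point per library, wild type as circles and wox5-1 wox7-1 as triangles. Both triangles lie to the left of both circles in 25 genes and to the right in 4.

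Among the A-type cyclins, which act from S phase to mitosis, 3 of 7 fell. CYCA1;1 (AT1G44110), a cyclin of the G2 phase and mitosis, had 39.6 and 49.5 CPM in the wild type libraries and 26.4 and 23.6 CPM in the mutant libraries. Both mutant values lay well below the wild type ones, and the log2 fold change was -0.83 (SE 0.14, adjusted p = 0.0382, edgeR). CYCA3;1 (AT5G43080), whose subfamily is linked to S phase, had 14.2 and 15.1 CPM against 7.92 and 9.11 CPM. It ranked 27 of 32 by its level per kilobase of exon in wild type callus, and it fell by 0.78 on the log2 scale (SE 0.13, adjusted p = 0.0384, edgeR). Its relative CYCA3;2 (AT1G47210), at 59.5 and 62.6 CPM against 57.5 and 54.1 CPM, differed by -0.13 on the log2 scale (SE 0.08, adjusted p = 0.299, edgeR).

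The 4 CYCA2 cyclins, which in Arabidopsis act together with CDKB1 to restrain endoreduplication, did not share a direction. CYCA2;3 (AT1G15570) had 72.1 and 67.5 CPM in wild type callus and 48.8 and 46.2 CPM in mutant callus. It was the only member of the subfamily past the threshold (log2 fold change -0.55, SE 0.08, adjusted p = 0.0279, edgeR). The most abundant of them per kilobase, CYCA2;4 (AT1G80370), stood at 139 and 132 CPM against 114 and 110 CPM. Its genotypes did not overlap, but the difference of -0.27 (SE 0.07) had an edgeR adjusted p of 0.0792, and it passed by DESeq2 (0.0439). At the other end, CYCA2;1 (AT5G25380) was scarce, with 1.18 and 1.60 CPM in wild type callus and 4.02 and 2.77 CPM in mutant callus. These values rest on 36 and 58 reads against 142 and 108. The log2 fold change of 1.28 (SE 0.35) is the most positive among the 32 genes, its edgeR adjusted p was 0.0819, and DESeq2 gave 0.0473. CYCA2;2 (AT5G11300) had 15.5 and 14 CPM against 17.5 and 15.5 CPM, so that the nearest libraries of the genotypes met as rounded (0.16, SE 0.12, adjusted p = 0.407, edgeR). The ratio of the scarcest to the most abundant gene of the subfamily per kilobase was 0.00799 and 0.0114 in wild type callus and 0.033 and 0.0237 in mutant callus.

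Of the 9 B-type cyclins, whose products drive entry into mitosis, 5 fell, and the difference followed subfamilies only in part. Upstream sequence of 5 of them is shown first, because genes with and without the MYB3R core can then be set beside their values. Each sequence is the 250 bases before the annotated gene start in the TAIR10.1 RefSeq annotation, written 5′ to 3′ on the strand of the gene, with AACGG or its reverse complement CCGTT in capitals. The windows are chr4:17624309-17624558 (minus strand), chr5:1861704-1861953 (minus), chr2:7663805-7664054 (plus), chr4:16901346-16901595 (plus) and chr1:5587462-5587711 (minus), in the order of the lines.
CYCB1;1: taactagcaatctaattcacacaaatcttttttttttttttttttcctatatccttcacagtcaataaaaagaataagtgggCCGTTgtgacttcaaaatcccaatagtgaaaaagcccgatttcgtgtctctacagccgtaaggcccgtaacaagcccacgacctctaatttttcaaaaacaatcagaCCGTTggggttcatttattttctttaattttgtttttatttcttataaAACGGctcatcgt
CYCB1;2: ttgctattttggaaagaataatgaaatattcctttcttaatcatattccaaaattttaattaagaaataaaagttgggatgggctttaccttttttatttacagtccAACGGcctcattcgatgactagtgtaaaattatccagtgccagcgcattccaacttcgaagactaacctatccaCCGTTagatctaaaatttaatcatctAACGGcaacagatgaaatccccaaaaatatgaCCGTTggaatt
CYCB2;1: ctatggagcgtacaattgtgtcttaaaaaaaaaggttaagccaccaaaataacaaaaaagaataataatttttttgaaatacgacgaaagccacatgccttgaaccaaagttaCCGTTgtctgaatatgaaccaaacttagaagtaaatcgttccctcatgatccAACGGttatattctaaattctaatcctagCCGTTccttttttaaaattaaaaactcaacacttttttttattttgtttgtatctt
CYCB2;2: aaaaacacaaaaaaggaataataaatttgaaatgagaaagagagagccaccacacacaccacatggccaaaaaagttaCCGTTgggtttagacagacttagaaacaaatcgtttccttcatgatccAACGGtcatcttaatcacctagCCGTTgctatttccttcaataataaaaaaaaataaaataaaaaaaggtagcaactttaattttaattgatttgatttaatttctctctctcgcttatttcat
CYCB3;1: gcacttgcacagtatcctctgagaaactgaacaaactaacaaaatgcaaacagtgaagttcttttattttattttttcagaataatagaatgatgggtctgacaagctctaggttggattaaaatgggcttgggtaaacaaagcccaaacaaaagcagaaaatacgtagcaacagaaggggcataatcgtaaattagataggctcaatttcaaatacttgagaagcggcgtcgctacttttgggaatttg
The first pair fell and hold 3 and 4 matches. The next pair hold 3 matches each and did not pass the threshold, and the last fell and holds 0.

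CYCB1;1 (AT4G37490), a widely used marker of cells in G2 and mitosis, lies on chromosome 4 from 17621886 to 17624308 on the minus strand. It had 48.0 and 56.5 CPM in the wild type libraries and 25.9 and 30.9 CPM in the mutant libraries. The higher mutant library stood well below the lower wild type library, with a log2 difference of -0.88 (SE 0.14, adjusted p = 0.0330, edgeR). CYCB1;2 (AT5G06150) ranked highest of the B-type cyclins per kilobase, and had 89.9 and 97.7 CPM against 59.8 and 65.5 CPM. It fell by 0.58 on the log2 scale (SE 0.09, adjusted p = 0.0312, edgeR), although 11.29% of its exonic 50-base windows also occur in CYCB1;5, so some of its reads could belong to that paralog. CYCB1;3 (AT3G11520) had 46.9 and 51.2 CPM in wild type callus and 33.6 and 33.6 CPM in mutant callus, and fell by 0.55 (SE 0.08, adjusted p = 0.0322, edgeR). The fourth gene, CYCB1;4 (AT2G26760), had a fold change of the same size (-0.55) but a wider spread in wild type callus, with 38.7 and 48.8 CPM against 30.3 and 29.7 CPM. Its SE was 0.13 and its edgeR adjusted p 0.0691, while DESeq2 gave 0.0133.

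In the CYCB2 subfamily, 1 of 4 fell. CYCB2;4 (AT1G76310) had 68.0 and 69.9 CPM in wild type callus and 46.5 and 43.3 CPM in mutant callus (log2 fold change -0.62, SE 0.08, adjusted p = 0.0232, edgeR). The remaining 3 differed far less. CYCB2;1 (AT2G17620) had 22.2 and 27.8 CPM against 25.1 and 25.9 CPM, so its mutant libraries lay between those of the wild type, and its log2 fold change was 0.03 (SE 0.14, adjusted p = 0.905, edgeR), with a sign that turned when wild type replicate 1 was left out (-0.11). CYCB2;2 (AT4G35620) had 36.4 and 39.7 CPM against 36.8 and 33.4 CPM, also overlapping (-0.11, SE 0.10, adjusted p = 0.464, edgeR). CYCB2;3 (AT1G20610) had 48.7 and 48.6 CPM against 45.7 and 43.0 CPM (-0.13, SE 0.07, adjusted p = 0.280, edgeR), and 16.99% of its exonic 50-base windows recur in the neighbouring locus AT1G20590, which had no reads. Within each library, the summed CYCB1 level per kilobase of exon was 1.46 and 1.56 times the summed CYCB2 level in wild type callus and 1.08 and 1.22 times in mutant callus.

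CYCB3;1 (AT1G16330), the single B3-type cyclin and a gene of meiosis as well as mitosis, fell by nearly the same log2 amount as the first CYCB1 gene. It lies on chromosome 1 from 5582387 to 5587461 on the minus strand. It had 38.7 and 44.1 CPM in wild type callus and 23.2 and 21.5 CPM in mutant callus, a log2 difference of -0.89 (SE 0.11, adjusted p = 0.0229, edgeR). Even the higher mutant library stood far below the lower wild type library.

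**Figure D2:**
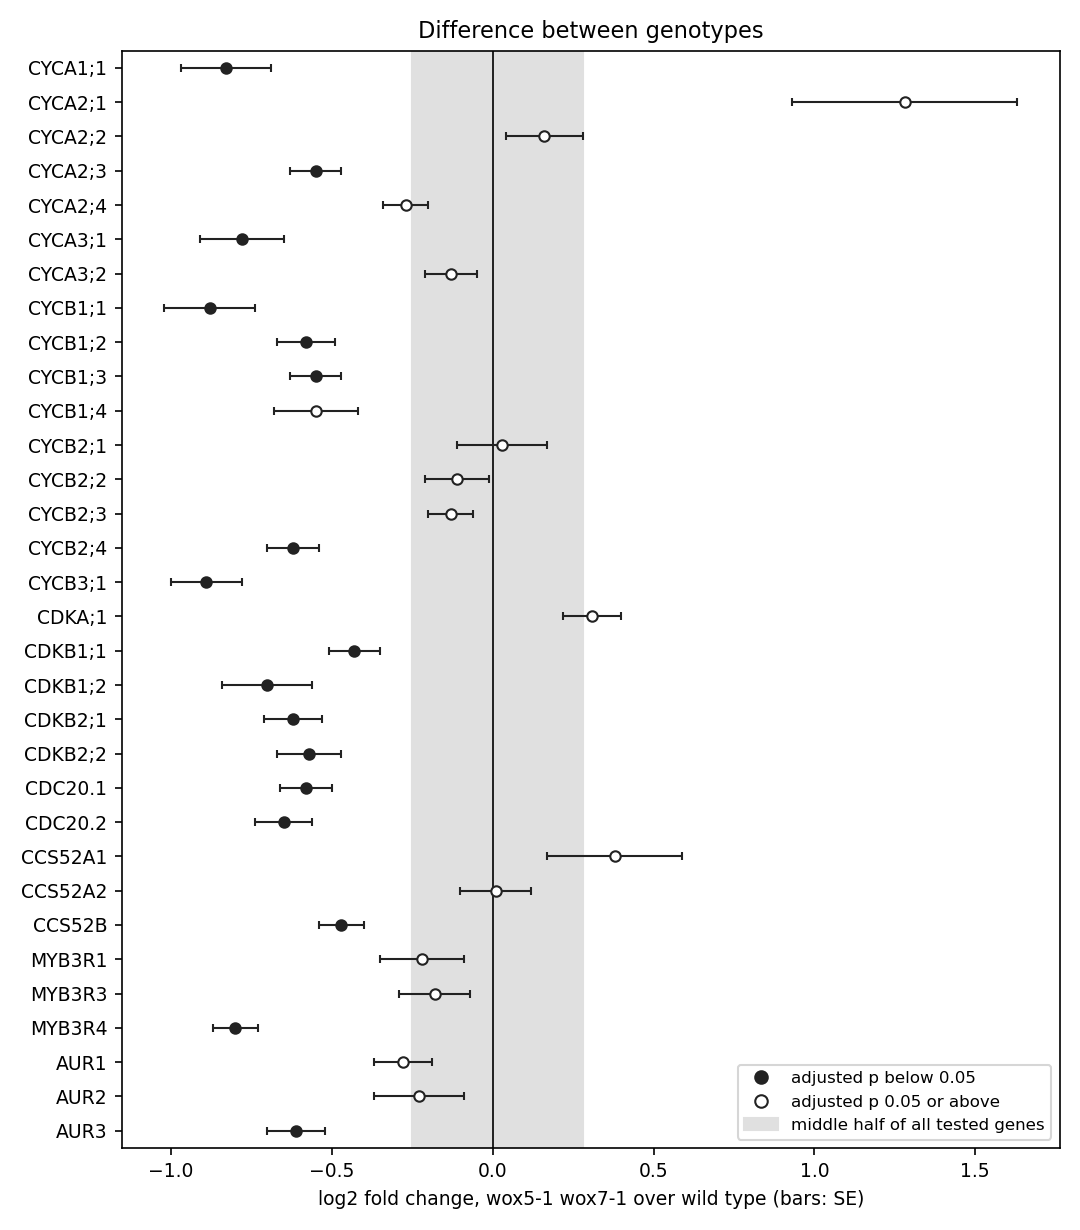
Log2 fold change of the mutant over the wild type for each of the 32 genes with its SE, filled where the edgeR adjusted p is below 0.05, over a grey band from -0.25 to 0.28 that holds the middle 50% of all 18716 tested genes. The filled points, 17 in number, all lie to the left of the band, and 3 CYCB2 genes lie inside it.

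The kinases split by type. CDKA;1 (AT3G48750), the single Arabidopsis CDK with the PSTAIRE cyclin-binding motif, had 70.7 and 66.0 CPM in wild type callus and 88.7 and 80.8 CPM in mutant callus. Both mutant libraries were higher, with a log2 difference of 0.31 (SE 0.09), an edgeR adjusted p of 0.0839 and a DESeq2 adjusted p of 0.0477. All 4 B-type kinase genes fell. The most abundant per kilobase, CDKB2;1 (AT1G76540), had 132 and 144 CPM against 93.8 and 85.5 CPM (-0.62, SE 0.09, adjusted p = 0.0293, edgeR). Its pair CDKB2;2 (AT1G20930) had 44.1 and 48.3 CPM against 33.1 and 29.3 CPM (-0.57, SE 0.10, adjusted p = 0.0428, edgeR). The CDKB2 genes are needed in Arabidopsis for normal cell cycle progression in the shoot meristem.

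The CDKB1 kinases, which act with CYCA2 cyclins and are needed for stomatal divisions, had adjusted p closer to the threshold. CDKB1;1 (AT3G54180) had 57.4 and 62.1 CPM in wild type callus and 42.7 and 45.7 CPM in mutant callus (-0.43, SE 0.08, adjusted p = 0.0457, edgeR). CDKB1;2 (AT2G38620) had 22.6 and 27.0 CPM against 14.3 and 16.1 CPM (-0.70, SE 0.14, adjusted p = 0.0458, edgeR). Both calls were lost with limma-voom, at adjusted p of 0.0532 and 0.0518. All 4 CDKB genes overlap a gene on the other strand by 44 to 281 bases, and whether reads were counted by strand is not stated in the labels. The partner of the second, AT2G38630, had 20.3 to 22.5 CPM in the 4 libraries, and the partner of the first, AT3G54190, 84.7 to 104 CPM. The partners of the CDKB2 pair had at most 0.205 CPM. Summed per kilobase, the CDKB genes stood at 3.91 and 4.6 times the level of the A-type kinase in the wild type libraries and at 2.24 and 2.36 times in the mutant libraries. The ratios did not overlap. The CDKB2 sum over the CDKB1 sum, in contrast, was 2.27 and 2.24 in wild type callus and 2.29 and 1.91 in mutant callus. With 2 libraries against 2, an exact two-sided permutation test of such a ratio cannot give a p below 0.333, so no test of the differences between family members was made.

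The APC/C activators split in a similar way. CDC20.1 (AT4G33270), an activator that acts in mitosis, had 133 and 145 CPM in wild type callus and 93.1 and 93.0 CPM in mutant callus (log2 fold change -0.58, SE 0.08, adjusted p = 0.0250, edgeR). CDC20.2 (AT4G33260), 619 bases from it on chromosome 4 with no gene between, had 88.3 and 102 CPM against 59.9 and 61.0 CPM (-0.65, SE 0.09, adjusted p = 0.0294, edgeR). The copies share 33.21% and 36.28% of their exonic 50-base windows, so part of the reads could belong to either, and their separate values are uncertain. The first stood at 1.40 and 1.32 times the second per kilobase in wild type callus and at 1.44 and 1.41 times in mutant callus. CCS52B (AT5G13840), which in Arabidopsis peaks from G2 to mitosis, had 90.8 and 96.5 CPM against 66.8 and 68.1 CPM and fell by 0.47 on the log2 scale (SE 0.07, adjusted p = 0.0312, edgeR). It overlaps NACA3 on the other strand by 190 bases, a gene with 123 to 153 CPM.

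The CCS52A genes, activators of the APC/C linked to endoreduplication and to the size of the root meristem, did not pass the threshold. CCS52A2 (AT4G11920) lay between 18.3 and 20.3 CPM in all 4 libraries, with the same lower value in both genotypes (0.01, SE 0.11, adjusted p = 0.980, edgeR). CCS52A1 (AT4G22910) had 3.22 and 3.65 CPM against 4.67 and 4.28 CPM, from 98 and 132 reads against 165 and 167. Both mutant libraries were higher, but the log2 fold change of 0.38 had an SE of 0.21 and an edgeR adjusted p of 0.283. Per kilobase, the CDC20 sum was 10.1 and 10.2 times the CCS52A sum in wild type callus and 6.57 and 6.15 times in mutant callus. The level of CCS52B over the same sum was 4.36 and 4.20 in wild type callus and 3.02 and 2.87 in mutant callus.

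**Figure D3:**
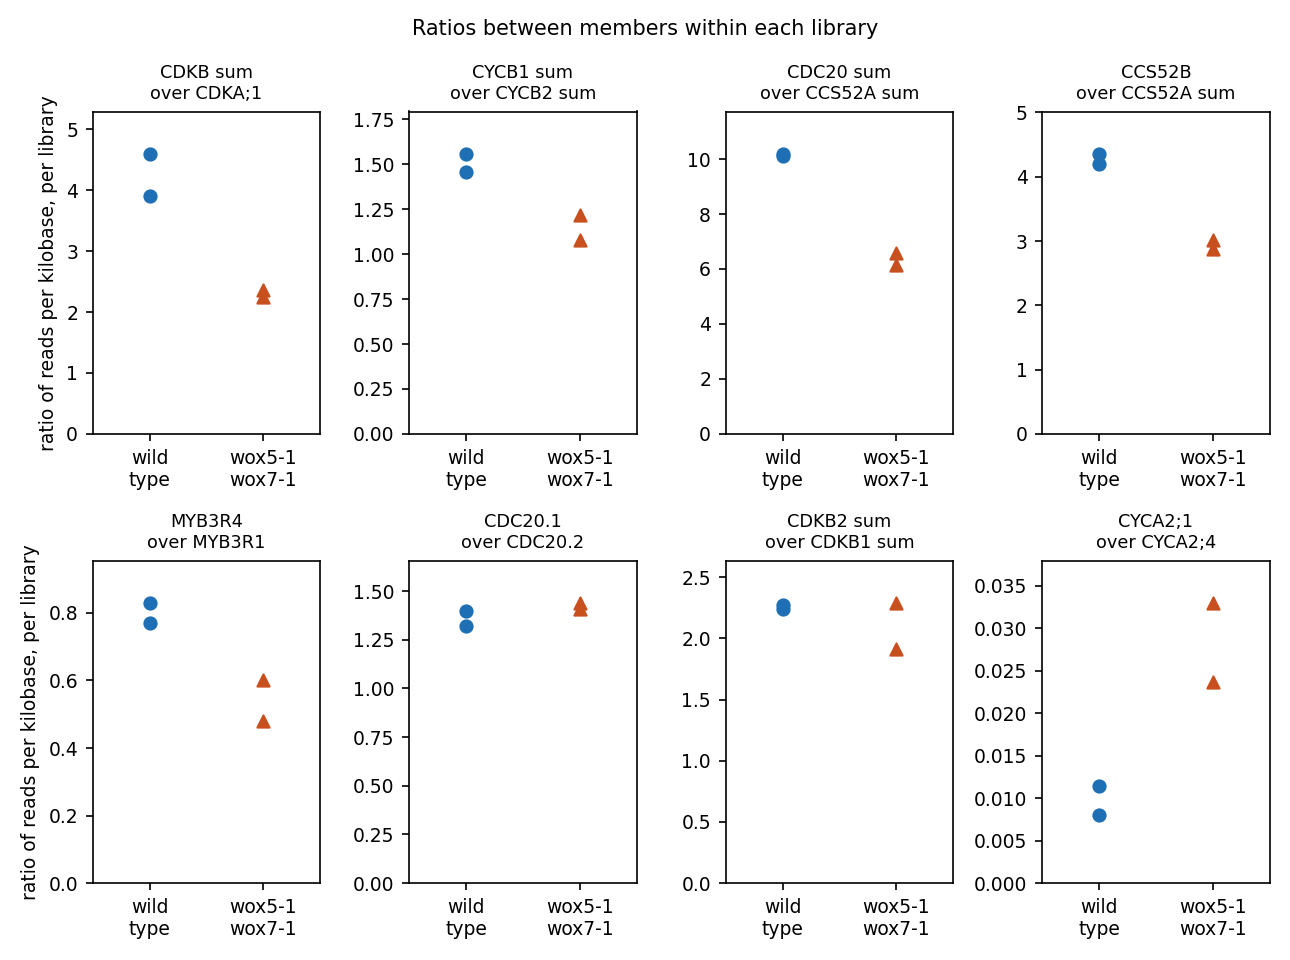
Ratios between members within each library, from TMM-scaled reads per kilobase of exon, with each vertical axis starting at 0 and wild type libraries as circles, mutant libraries as triangles. Of the 8 ratios, 5 are lower in both mutant libraries (2.24 and 2.36 against 3.91 and 4.6 for the CDKB sum over the A-type kinase), 1 overlaps (the CDKB2 sum over the CDKB1 sum) and 2 are higher in both.

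Of the 3 MYB3R genes, MYB3R4 (AT5G11510) fell. It encodes the factor best known as an activator of mitotic genes and lies on chromosome 5 from 3679748 to 3684884 on the plus strand. It had 74.1 and 74.0 CPM in wild type callus and 42.6 and 42.4 CPM in mutant callus, closely matched within each genotype. The log2 fold change was -0.80 (SE 0.07), and the edgeR adjusted p of 0.0158 was the smallest of the 32. MYB3R1 (AT4G32730), which can act as an activator or a repressor, had 100 and 93.1 CPM against 92.8 and 73.6 CPM. Its mutant libraries differed from each other by more than the genotypes did at their nearest (-0.22, SE 0.13, adjusted p = 0.322, edgeR). MYB3R3 (AT3G09370), a repressor, had 18.5 and 19.1 CPM against 17.6 and 15.7 CPM (-0.18, SE 0.11, adjusted p = 0.316, edgeR). The ratio of MYB3R4 to MYB3R1 per kilobase was 0.771 and 0.830 in wild type callus and 0.479 and 0.601 in mutant callus.

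Of the Aurora kinases, AUR3 (AT2G45490), which in Arabidopsis localises to centromeres, fell. It had 19.7 and 19.9 CPM in wild type callus and 12.9 and 13.1 CPM in mutant callus (-0.61, SE 0.09, adjusted p = 0.0328, edgeR). AUR1 (AT4G32830) and AUR2 (AT2G25880), which act at the spindle and the forming cell plate, did not pass. AUR1 had 52.1 and 54.8 CPM against 46.7 and 41.7 CPM (-0.28, SE 0.09, adjusted p = 0.118, edgeR). AUR2 had 21.1 and 22.2 CPM against 16.5 and 20.3 CPM (-0.23, SE 0.14, adjusted p = 0.294, edgeR). In both, all mutant values were below the wild type ones, with the second mutant library of AUR2 close to them. AUR2 overlaps AT2G25890 on the other strand by 877 bases, a gene with no reads. CYCA2;3, MYB3R1, AUR1 and AUR3 overlap genes on the other strand by 48 to 290 bases, and these partners had at most 31.2 CPM.

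Levels of different genes were compared per kilobase of exon (RPKM, from TMM-scaled reads and the summed exon length in the annotation). CDKB2;1 ranked first in wild type callus at 101 RPKM, followed by the A-type cyclin CYCA2;4 at 74.0, and their libraries did not overlap (96.4 and 105 against 76.0 and 72.0). In mutant callus the same genes led at 65.6 and 61.3 RPKM, but there the lower library of the first and the higher of the second were both at 62.5. CDC20.1 followed in wild type callus, at 66.4 RPKM. The next 4, CYCB1;2, CDC20.2, CCS52B and CDKA;1, lay between 45.6 and 51.4 RPKM, and each overlapped or met its neighbour in that order. The A-type kinase moved from rank 7 in wild type callus to rank 3 in mutant callus, at 56.5 RPKM. At the low end stood CCS52A1, at 1.61 RPKM in wild type callus and 2.10 in mutant callus, and CYCA2;1, at 0.715 and 1.74.

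The MYB3R core was searched as AACGG on both strands in the 250 bases before each annotated gene start. The 2 forms cannot overlap each other. It was present in 14 of the 32 members (43.8%), against 22.4% of 18325 tested protein-coding genes and 20.6% of 27443 protein-coding genes of chromosomes 1 to 5. At least 2 matches were found in 10 members (31.2%), against 4.2% of tested genes. B-type cyclins held most of them, with at least 2 matches in 6 of 9, whereas 0 of 5 APC/C activators and 1 of 5 kinases held any. The windows of CDKB1;1, CDKB2;1, CDC20.1, CCS52B, MYB3R1, MYB3R4 and AUR3 run into a neighbouring gene. Of these, only MYB3R4 held a match.

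Among the members, the core was found in 7 of the 17 members that fell (41.2%) and in 7 of the 15 others (46.7%). The CYCB1 genes with the core (3 or 4 matches) fell, and so did CYCB2;4 and the B3-type cyclin gene, which had 0 in this window. The 3 CYCB2 genes that did not pass each held 3 matches, in the same order of strands (reverse, forward, reverse). CYCB1;3, which fell, held 3 matches in that order too, at 64, 39 and 5 bases. In CYCB2;1 the matches began 137, 85 and 56 bases before the start, and in CYCB2;2 at 172, 124 and 102. The 3 matches in CYCB1;1 began at 168, 61 and 13 bases. MYB3R4 itself held 1 match, at 83 bases, and MYB3R3 held 2. A match of 5 bases is a description of the sequence and does not show a bound site, and a window without one says nothing of sites further away.

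**Figure D4:**
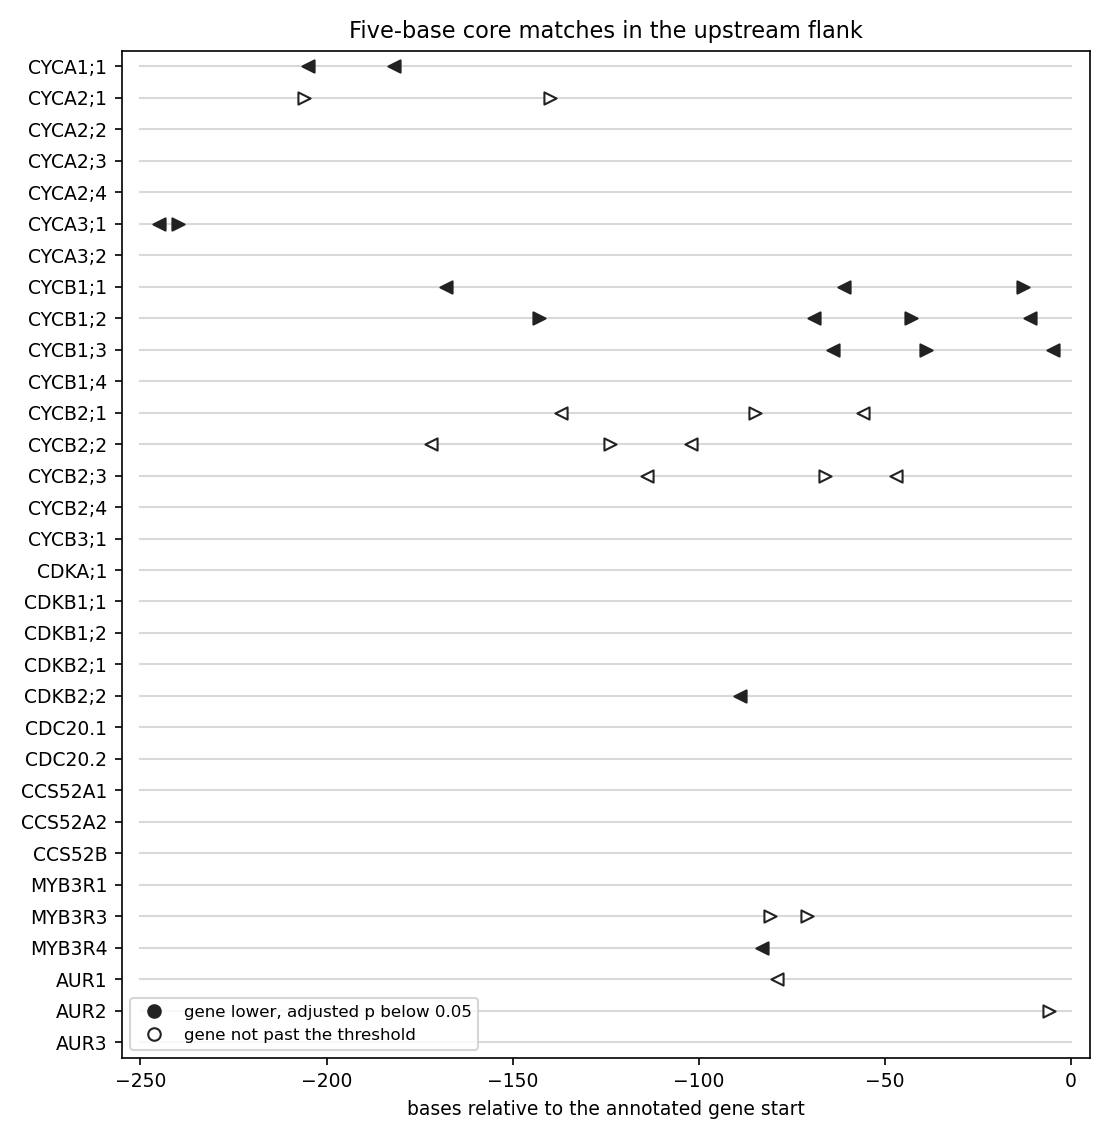
Positions of the 5-base core in the 250 bases upstream of each of the 32 genes, as bases before the annotated start, pointing right on the strand of the gene and left on the other strand. Filled marks are genes that fell, and they are found in 7 of 17 such genes, as open marks are in 7 of the 15 others.

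Other genes of the cell cycle were read from the same fit, in 8 lists of 71 genes, of which 66 could be tested. Among them 18 fell (27.3%) and 0 rose by edgeR, against 5.81% lower and 6.06% higher over all tested genes. At an unadjusted p below 0.05, 40 were lower and 0 higher, against 16.3% and 17.0%. DESeq2 called 26 lower and 1 higher, against 9.29% and 11.5%. The gene higher by DESeq2 is MYB3R2, named after its values were seen, with 0 and 0 reads in wild type callus and 7 and 31 in mutant callus. The counts of each list below stand beside the same shares. Of 8 genes of mitosis and cytokinesis, 7 fell (median log2 fold change -0.67). The example with the smallest p, TPX2, a spindle assembly factor, had 80.3 and 82.2 CPM in wild type callus and 51.7 and 49.5 CPM in mutant callus (-0.68, SE 0.07, adjusted p = 0.0193, edgeR). Of 6 genes of the spindle checkpoint, which holds back the APC/C until chromosomes are attached, 4 fell (median -0.58), namely MAD2, BUBR1, BUB3.1 and AT2G20635. MAD2, a core checkpoint gene, had 61.2 and 62.3 CPM against 40.2 and 41.6 CPM (-0.59, SE 0.07, adjusted p = 0.0226, edgeR).

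Genes of S phase fell in 5 of 13 cases (median -0.50), which were PCNA1, PCNA2, MCM3, MCM6 and PRL. PCNA2, which encodes a sliding clamp of DNA polymerases, had 111 and 103 CPM against 66.6 and 64.9 CPM (-0.70, SE 0.08, adjusted p = 0.0206, edgeR). Of 8 CDK-activating kinases and CDK partners, 1 fell, the inhibitory kinase gene WEE1, at 19.1 and 18.6 CPM against 13.5 and 13.1 CPM (-0.50, SE 0.10, adjusted p = 0.0456, edgeR). The core subunits of the APC/C, the complex that CDC20 and CCS52 proteins activate, did not pass in any of 13 cases by edgeR (6 lower at an unadjusted p below 0.05, 1 by DESeq2). Their median was -0.24, and APC4 had the smallest p, at 44.9 and 47.8 CPM against 36.6 and 32.8 CPM (-0.42, SE 0.10, adjusted p = 0.0608, edgeR). Both APC/C inhibitor genes missed the threshold, UVI4, at 9.54 and 12.4 CPM against 6.76 and 7.21 CPM, with a log2 difference of -0.65 (SE 0.18, adjusted p = 0.0896, edgeR) and its relative UVI4-LIKE, at 46.7 and 49.5 CPM against 36.8 and 40.7 CPM, with -0.31 (SE 0.09, adjusted p = 0.0933, edgeR). DESeq2 called 0 of these 2, and both had an unadjusted p below 0.05.

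Of 11 genes for RBR1, E2F and other components of the DREAM complex, which regulates transcription in the cell cycle, 0 passed by edgeR (2 lower at an unadjusted p below 0.05, 1 by DESeq2), with a median of -0.13. TSO1, which encodes a CXC-domain protein, had the smallest p in that list, at 144 and 139 CPM against 118 and 104 CPM (-0.35, SE 0.09, adjusted p = 0.0741, edgeR). Of 10 paralogs of the members, 5 had too few reads to be tested, and 1 of the rest fell. That gene, CYCA3;4, had 41.0 and 47.2 CPM against 31.3 and 28.3 CPM (-0.57, SE 0.11, adjusted p = 0.0476, edgeR).

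**Figure D5:**
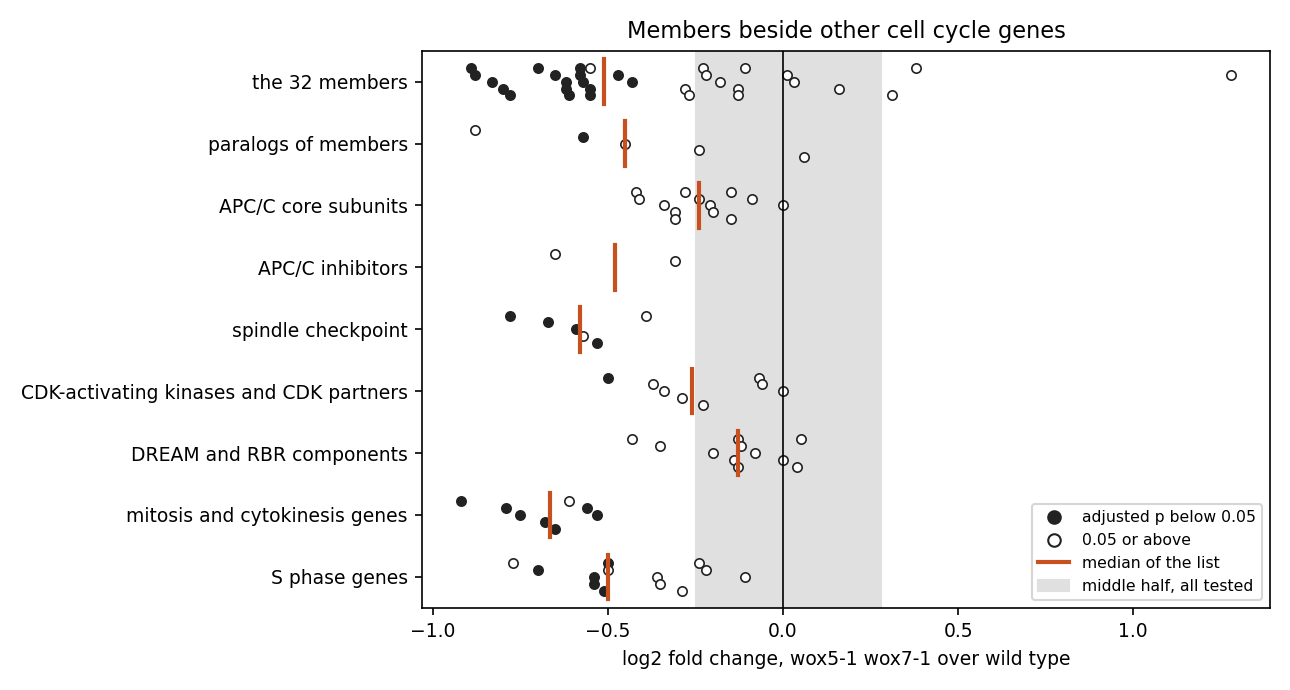
Log2 fold changes of the 32 members and of 8 other lists of cell cycle genes, 1 point per tested gene, filled where the edgeR adjusted p is below 0.05, with the median of each list as a vertical line and the middle 50% of all tested genes as a grey band. Medians run from -0.67 for mitosis and cytokinesis genes to -0.13 for DREAM and RBR components, and the members lie at -0.51.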

How the data were processed

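Per the labels' protocols, RNA was extracted with TRIzol and libraries followed standard Illumina protocols. Per the submitters' processing notes, STAR 2.7.2b, Trim Galore 0.5.0 and DESeq2 were used with build TAIR10, and no roles are given. No source used here gives the counting tool, annotation release or strand setting.

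The deposited table holds whole-number counts per gene for 4 libraries, with a minimum of 10 in each, held by 33.1% to 35.3% of genes. As the rule for the members asks, 10 was subtracted from every deposited count. That a constant had been added is an inference from the values: for genes with a mean above 10 and up to 20, the variance within a genotype was 0.520 and 0.539 times the mean as deposited and 2.25 and 2.39 times after the subtraction.

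In R 4.3.3 with edgeR 4.0.16, genes were kept by filterByExpr (18716), scaled by TMM and tested two-sided by genotype alone with glmQLFTest after glmQLFit. P-values were adjusted by Benjamini-Hochberg across these genes, and 0.05 was the threshold. The SE is the absolute log2 fold change over the square root of F. At these depths 3 reads are 0.0770 to 0.0986 CPM. Alternatives were other scalings and filters, DESeq2 1.42.0, limma-voom (limma 3.58.1), the table as deposited, a replicate block and leaving out each library. The steps were also run on simulated data, whose changes were larger than those of the members that fell. Such a run does not show how well changes of that smaller size are found.

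All 32 members are named. From each other list the called gene with the smallest p is named, or the gene with the smallest p where none was called, and both genes of a list of 2. Where 5 or fewer genes were called in a list, these are named too. The members and lists were chosen with earlier results of these data known. Names, positions and sequence came from the TAIR10.1 RefSeq annotation and genome, which matched 32548 identifiers. Protein sequences were not used here. Windows of 50 bases were compared with the whole genome, since no source used here gives the read length. Replicates were kept apart, since their counts differed beyond sampling noise, with a chi-square over its degrees of freedom of 19.2 and 46.6.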

Additional observations from a re-analysis of the deposited data

How the results depend on the processing

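With RLE or upper-quartile scaling, no filter or the stricter filter (CPM of at least 1 in 2 libraries), the same 17 members were lower and 0 higher. Over all tested genes, 5.46%, 5.73%, 5.16% and 6.47% were lower in these settings, in that order. The genes called higher numbered 1126, 1018, 1402 and 1191. With limma-voom 15 of the 17 members were lower, beside 897 genes lower and 801 higher over all 18716. DESeq2 called 1760 genes lower and 2183 higher against 1088 and 1135 by edgeR, with 19 members lower and 2 higher and 1 gene of the other cell cycle lists higher. The values as deposited called 1312 genes lower and 2609 higher, so that 33.5% of calls were lower against 48.9%, with 18 members lower and 1 higher, a median over members of -0.43 and 1 gene of the other lists higher. That test covered 32833 genes and used another dispersion trend.

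The replicate numbers are not known to pair the libraries. The replicate 1 minus replicate 2 differences of the 2 genotypes correlated at 0.555 over all tested genes and at 0.0408 over the members. With the replicate number as a block, 2223 genes were lower and 2527 higher, with 19 members lower and 1 higher, and with 33 genes of the other lists lower.

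When each library was left out in turn, edgeR called from 0 to 1041 genes lower and from 0 to 1452 higher, from 0 to 13 members lower and from 0 to 17 genes of the other lists lower, and the median over members ran from -0.51 to -0.41. A genotype then holds 1 library, assumed to vary like the others. Without wild type replicate 1 or 2, the median over members was -0.51 and -0.41, against 0.01 and 0.01 over all tested genes. DESeq2 was run this way only after the data were seen, and it too called fewer members lower than with all 4 libraries. The sign of CCS52A2 turned with upper-quartile scaling (-0.02), and its leave-one-out range was -0.07 to 0.08. That of CYCB2;1 was -0.11 to 0.20. The causes were not tested.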
